A study of Mus musculus with 3 samples.

Results

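The uroplakins are the 5 genes *Upk1a*, *Upk1b*, *Upk2*, *Upk3a* and *Upk3b*, and they were followed through single-cell transcriptomes of whole mouse kidneys at E15.5 (embryonic day). They were picked by symbol from the 32285 genes of the count matrices, with their UMI counts in these libraries already known, so that their levels are given as a description and carry no test. Kidneys of 3 kinds were compared, each as 1 library, on the B6 background. Enl-WT embryos had 2 normal copies of *Enl*, the gene of a chromatin reader. Enl-T1 embryos carried 1 conditional copy with the T1 mutation, a short in-frame insertion in the YEATS domain, which was switched on by Cre. Enl-T1 TDI-11055 embryos had the Enl-T1 genotype, and their mothers received the ENL inhibitor TDI-11055 orally, at 100 mg/kg per day between E10.5 and E14.5, and this library is called the treated one below. The other libraries were labelled as untreated. Embryos of every group carried the *Wt1* GFPCre allele, so that 1 copy of *Wt1* was lost in the controls too. This Cre is active in the progenitors of the nephron and the stroma and not in the ureteric epithelium, where uroplakins are found. The Enl-WT and Enl-T1 libraries each pooled kidneys of several embryos, and the number of embryos behind the treated library is not given in the sources used here. Counts at the 3′ end of transcripts cannot show the T1 insertion.

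Uroplakins are membrane proteins of the urothelium, the lining of the renal pelvis, ureter and bladder. They assemble into rigid plaques on the apical surface that make the lining tight and able to stretch. *Upk1a* and *Upk1b* encode tetraspanins, which cross the membrane several times. Each pairs with a partner that crosses it once: *Upk1a* with *Upk2*, and *Upk1b* with *Upk3a* or *Upk3b*. *Upk3b* and *Upk1b* are also used in mesothelium, the sheet of cells that covers organs. The lining of the upper urinary tract arises from the ureteric bud, the same epithelium that gives the collecting ducts.

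The members lie on 5 chromosomes of GRCm38, and none overlapped another gene of the GENCODE M21 annotation. *Upk1a* spans chr7:30603092-30612847 on the minus strand, *Upk1b* chr16:38773184-38800328 on the minus strand, *Upk2* chr9:44452715-44454976 on the minus strand, *Upk3a* chr15:85017141-85022547 on the plus strand and *Upk3b* chr5:136038496-136046487 on the plus strand. *Upk3bl*, a related gene outside the 5 members, follows *Upk3b* on the same strand at chr5:136054492-136064326. Promoters were matched for 3 of the 5 members (RefSeq, GRCm38.p6), and are shown because these genes were detected in the same cells. The 250 bases before each RefSeq start were searched on both strands for 7 motifs, and letters inside the annotated gene are left out for *Upk1a*. Capitals mark the matches, and every sequence reads 5′ to 3′ on the strand of its gene.
Upk1a, chr7:30612848-30612984, minus strand: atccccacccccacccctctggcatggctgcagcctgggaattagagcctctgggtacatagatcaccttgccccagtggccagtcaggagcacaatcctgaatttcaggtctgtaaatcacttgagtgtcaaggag
Upk3a, chr15:85016891-85017140, plus strand: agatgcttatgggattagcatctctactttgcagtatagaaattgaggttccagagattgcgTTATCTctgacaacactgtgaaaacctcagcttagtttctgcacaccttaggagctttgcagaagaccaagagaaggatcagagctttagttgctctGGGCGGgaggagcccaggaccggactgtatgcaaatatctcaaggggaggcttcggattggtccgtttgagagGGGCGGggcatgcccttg
Upk3b, chr5:136038246-136038495, plus strand: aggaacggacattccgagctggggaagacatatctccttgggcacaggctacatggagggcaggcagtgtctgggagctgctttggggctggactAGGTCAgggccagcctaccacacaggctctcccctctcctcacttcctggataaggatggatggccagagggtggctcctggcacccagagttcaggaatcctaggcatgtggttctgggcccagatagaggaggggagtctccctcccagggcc
The *Upk3a* promoter held a GATA motif (AGATAA, here as its reverse complement) at positions -188 to -183 from the start. It also held 2 GC boxes (GGGCGG), at -91 to -86 and at -18 to -13. In *Upk3b*, the nuclear receptor motif AGGTCA lay at -155 to -150. Of all 32851 promoters searched, 9.99% held the GATA motif, 32.7% the GC box and 14.02% AGGTCA. None of the 3 matched promoters held the TATA box TATAAA (12.4% of all promoters) or the forkhead motif TGTTTAC (3.17%). The Grainyhead-like motif AACCNGTT (1.79%) and the AP-1 motif TGANTCA (6.75%) were absent from them too. None of the 7 was found before *Upk1a*. The GC content of the searched stretch was 54.4% for *Upk1a*, 49.6% for *Upk3a* and 60.8% for *Upk3b*, against a median of 52.4% for all promoters.

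The filter of the study (1000 to 6000 genes and at most 10% mitochondrial UMIs) left 5233 cells of Enl-WT, 4144 of Enl-T1 and 2754 of the treated library. Their median depth was 5090, 9391 and 16931.5 UMIs. Any pair of libraries shared 5 to 8 kept barcodes. With 1 library per group no test between groups was possible, and the 95% intervals given in parentheses (exact Poisson for counts, exact Clopper-Pearson for shares of cells) cover counting error only. Levels are given as CPM, the UMIs of a gene scaled to 1000000 UMIs of the same cells, and are not divided by gene length because the assay counts 3′ ends. Condition, litter, dissection and library cannot be told apart here, including how much ureter was left on the kidneys.

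In whole kidneys, all 5 uroplakins were highest in the Enl-T1 library and lowest in the treated library. *Upk1a* reached 5.15 CPM in Enl-WT (165 UMIs, 4.4 to 6.0), 16.3 CPM in Enl-T1 (720 UMIs, 15.1 to 17.5) and 1.59 CPM in the treated library (69 UMIs, 1.24 to 2.02). The other tetraspanin, *Upk1b*, reached 3.43 CPM (110 UMIs, 2.82 to 4.14), 19.2 CPM (847 UMIs, 17.9 to 20.5) and 1.11 CPM (48 UMIs, 0.817 to 1.47) in the same order. The order of the libraries was thus the same for both tetraspanins, and no interval overlapped that of another library.

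*Upk2*, the partner of *Upk1a*, was the lowest member in each library. It was at 1.16 CPM in Enl-WT (37 UMIs, 0.813 to 1.59), 7.67 CPM in Enl-T1 (339 UMIs, 6.87 to 8.53) and 0.369 CPM in the treated library (16 UMIs, 0.211 to 0.600). *Upk3a*, a partner of *Upk1b*, supplied most of the uroplakin UMIs. Its level was 29.4 CPM in Enl-WT (941 UMIs, 27.5 to 31.3), 142 CPM in Enl-T1 (6257 UMIs, 138 to 145) and 17.5 CPM in the treated library (757 UMIs, 16.3 to 18.8). *Upk3b* reached 2.81 CPM (90 UMIs, 2.26 to 3.45), 8.50 CPM (376 UMIs, 7.67 to 9.41) and 0.854 CPM (37 UMIs, 0.602 to 1.18). *Upk3a* made up 70.1%, 73.3% and 81.7% of the members' UMIs in the 3 libraries.

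**Figure D1:**
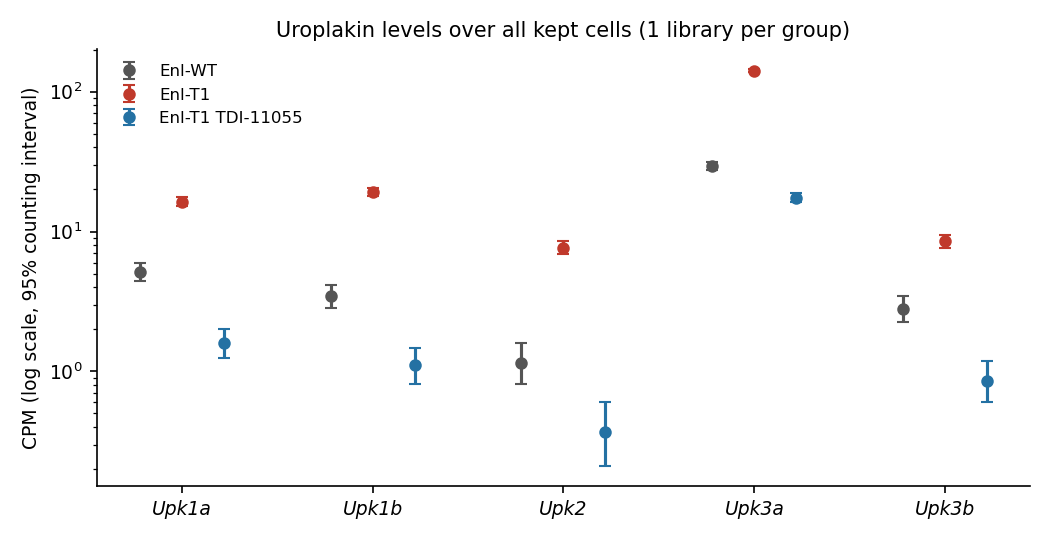
Levels of the 5 uroplakins over all kept cells (CPM, log axis), with 1 point per gene and library and bars for the exact 95% Poisson interval. For every gene the Enl-T1 point lies highest and the treated point lowest, and *Upk3a* lies above the other members in each library.

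Summed over the members, the level was 41.9 CPM in Enl-WT (1343 UMIs, 39.7 to 44.2), 193 CPM in Enl-T1 (8539 UMIs, 189 to 197) and 21.4 CPM in the treated library (927 UMIs, 20.1 to 22.8). The Enl-T1 library was 4.61 times the Enl-WT library (4.35 to 4.88), with single members between 3.03 times (*Upk3b*, 2.40 to 3.85) and 6.64 times (*Upk2*, 4.72 to 9.59). Among 10890 genes with at least 5 CPM on average, 272 (2.5%) were at least 2-fold higher and 797 (7.32%) at least 2-fold lower in Enl-T1. The 3 members above that level, *Upk1a*, *Upk1b* and *Upk3a*, were among the higher ones, against a median log2 ratio of -0.33 for all genes. The average includes Enl-T1, where *Upk1a* and *Upk1b* were at 16.3 and 19.2 CPM. In Enl-WT they were at 5.15 and 3.43 CPM, and in the treated library at 1.59 and 1.11 CPM. They passed the level through Enl-T1, which favours their place among the higher genes. With median-of-ratios size factors in place of totals, 495 genes were higher and 277 lower.

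The treated library was 0.111 times the Enl-T1 library for the sum (0.103 to 0.119). Single members lay between 0.048 times (*Upk2*, 0.027 to 0.079) and 0.124 times (*Upk3a*, 0.114 to 0.133). The same 3 members were among the 501 of 10890 genes (4.6%) at least 2-fold lower, while the median log2 ratio of all genes was -0.02. The 3 comparisons share libraries and are not independent of each other. Against Enl-WT, the treated library was 0.511 times as high for the sum (0.469 to 0.556). *Upk3a* was at 0.595 times (0.540 to 0.655), and the other members were between 0.304 and 0.323 times. *Upk1a* and *Upk1b* were among 1847 genes (17%) at least 2-fold lower, against 183 that were higher and a median log2 ratio of -0.35. Size factors moved those counts to 541 lower and 577 higher. The members were chosen from these counts, and *Upk1a* and *Upk1b* passed the 5 CPM level through Enl-T1. Their place among the genes past a fold is therefore a description. Under stricter limits (at least 2000 genes and at most 5% mitochondrial UMIs) the sum in the treated library was above Enl-WT (log2 ratio 0.50), and the log2 ratio of Enl-T1 over Enl-WT was 3.65 in place of 2.20. Those limits left 1 of the 54 Enl-WT cells of the urothelium-like cluster described next.

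Clustering was run without the 5 members, and 1 cluster was named urothelium-like from its markers. It was led by *S100a6*, *Fxyd3*, *Sfn*, *Sptssb*, *Sprr1a* and *Rab27b*, and 11 of 13 urothelium markers had a UMI in at least 10% of its cells. It held 54 Enl-WT cells (1.03% of kept cells), 110 Enl-T1 cells (2.65%) and 15 treated cells (0.545%). Uroplakins were far higher there than over whole kidneys. The members summed to 1307 CPM in Enl-WT (490 UMIs, 1194 to 1428), 2489.7 CPM in Enl-T1 (4337 UMIs, 2416 to 2565) and 721 CPM in the treated library (195 UMIs, 623 to 830). A UMI of at least 1 member was found in 92.6%, 97.3% and 100% of these cells, at median depths of 5525.5, 14572.5 and 18303 UMIs. In endothelial-like cells, which should lack uroplakins, the share was 0.76%, 10.1% and 0.86% at median depths of 5664, 10456 and 14335.5 UMIs.

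Within these cells the ratios between libraries were not the same for all members. *Upk3a* was at 693 CPM in Enl-WT (260 UMIs), 1567 CPM in Enl-T1 (2730 UMIs) and 492 CPM in the treated library (133 UMIs). Its ratio of Enl-T1 over Enl-WT was 2.26 (1.99 to 2.58), and it was the 1 member of 5 past 2-fold, where 630 of 10295 genes (6.12%) were. *Upk1b* reached 235, 402 and 122 CPM from 88, 700 and 33 UMIs, with an Enl-T1 over Enl-WT ratio of 1.71 (1.37 to 2.16). *Upk1a* reached 224, 268 and 37.0 CPM from 84, 466 and 10 UMIs, and the same ratio was 1.19 (0.945 to 1.53), an interval that includes no difference. *Upk2* was at 77.3, 149 and 18.5 CPM (29, 259 and 5 UMIs) with a ratio of 1.92 (1.31 to 2.93). *Upk3b* was at 77.3, 104 and 51.8 CPM (29, 182 and 14 UMIs) with a ratio of 1.35 (0.910 to 2.07). The sum differed by 1.91 times (1.74 to 2.10), less than over whole kidneys, and the share of urothelium-like cells was larger in Enl-T1 as well. The treated cells were at 0.290 times Enl-T1 for the sum (0.250 to 0.334) and at 0.552 times Enl-WT (0.465 to 0.653), from 15 cells.

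Single cells of the cluster varied widely. The summed members ran from 0 to 51 UMIs per cell in Enl-WT (median 5), from 0 to 309 in Enl-T1 (median 21.5) and from 1 to 46 in the treated library (median 10). All 5 members were detected together in 5 of 54, 41 of 110 and 2 of 15 cells. Depth differed between the libraries too, so the numbers of members per cell are not comparable between libraries without thinning.

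**Figure D2:**
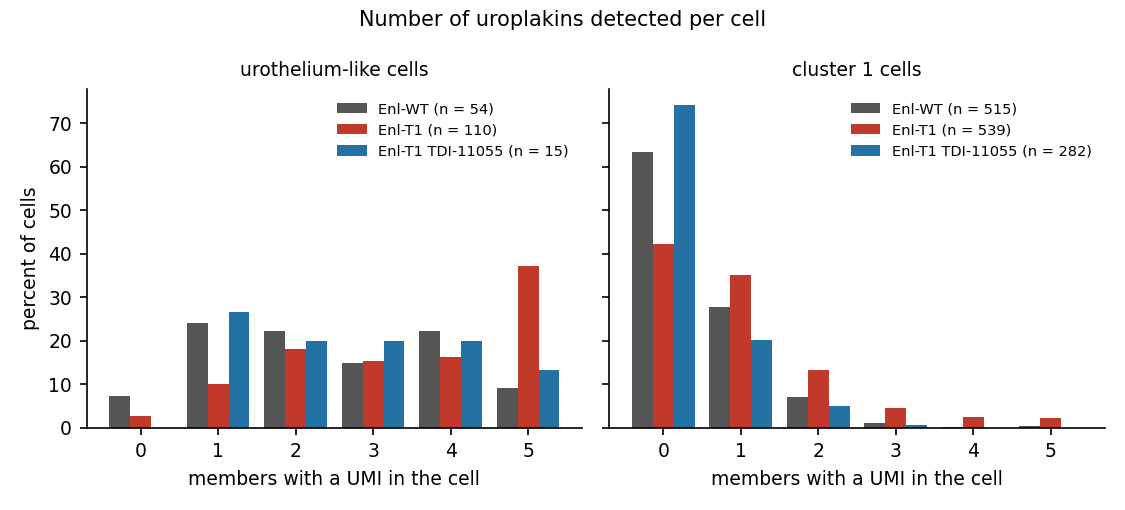
Percent of cells (vertical axis) with 0 to 5 of the uroplakins detected (horizontal axis), at each library's own depth, in the urothelium-like cluster and in cluster 1 (both described in the text), with a bar per library. All 5 members were seen in 41 of 110 Enl-T1 urothelium-like cells, whereas 227 of 539 Enl-T1 cells of cluster 1 held none.

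Most of the uroplakin UMIs outside the urothelium-like cluster lay in cluster 1, a part of the ureteric epithelium led by *Fxyd4*, *Sprr2f*, *Spink8*, *Apela* and *Pdzk1ip1*. By its markers it was named ureteric trunk/collecting duct-like, with 11 of them detected in at least 10% of its cells. None was among its 10 leading genes, so it is called by its number. It held 515, 539 and 282 cells of Enl-WT, Enl-T1 and the treated library, or 9.84%, 13.01% and 10.2% of kept cells. Its members summed to 188 CPM (739 UMIs), 547 CPM (3852 UMIs) and 139 CPM (645 UMIs). *Upk3a* alone made up 86.6%, 85.7% and 95.04% of these, with 163, 469 and 132 CPM, and it was detected in 32.2%, 54.0% and 21.6% of the cells. In the urothelium-like cluster its share of the members' UMIs was 53.1%, 63.0% and 68.2%. In each library the other members thus took a larger part of the UMIs in urothelium-like cells than in cluster 1. *Upk1a* gave 30, 190 and 9 UMIs in cluster 1, *Upk1b* 18, 115 and 10, *Upk2* 6, 64 and 1, and *Upk3b* 45, 180 and 12. The Enl-T1 over Enl-WT ratio of the sum in cluster 1 was 2.91 (2.69 to 3.15), and the treated library was at 0.254 times Enl-T1 and 0.740 times Enl-WT.

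The level of *Upk3a* was not even within cluster 1. At a finer resolution of 1 it divided mainly in 2. A part of 243, 290 and 102 cells held *Upk3a* at 402, 861 and 364 CPM in Enl-WT, Enl-T1 and the treated library. It was named urothelium-like at that resolution, though only 1 urothelium marker was among its 10 leading genes. Of the 13 markers, 7 had a UMI in at least 10% of its cells. A part of 268, 248 and 180 cells, named ureteric trunk/collecting duct-like, held *Upk3a* at 8.45, 31.6 and 2.02 CPM.

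**Figure D3:**
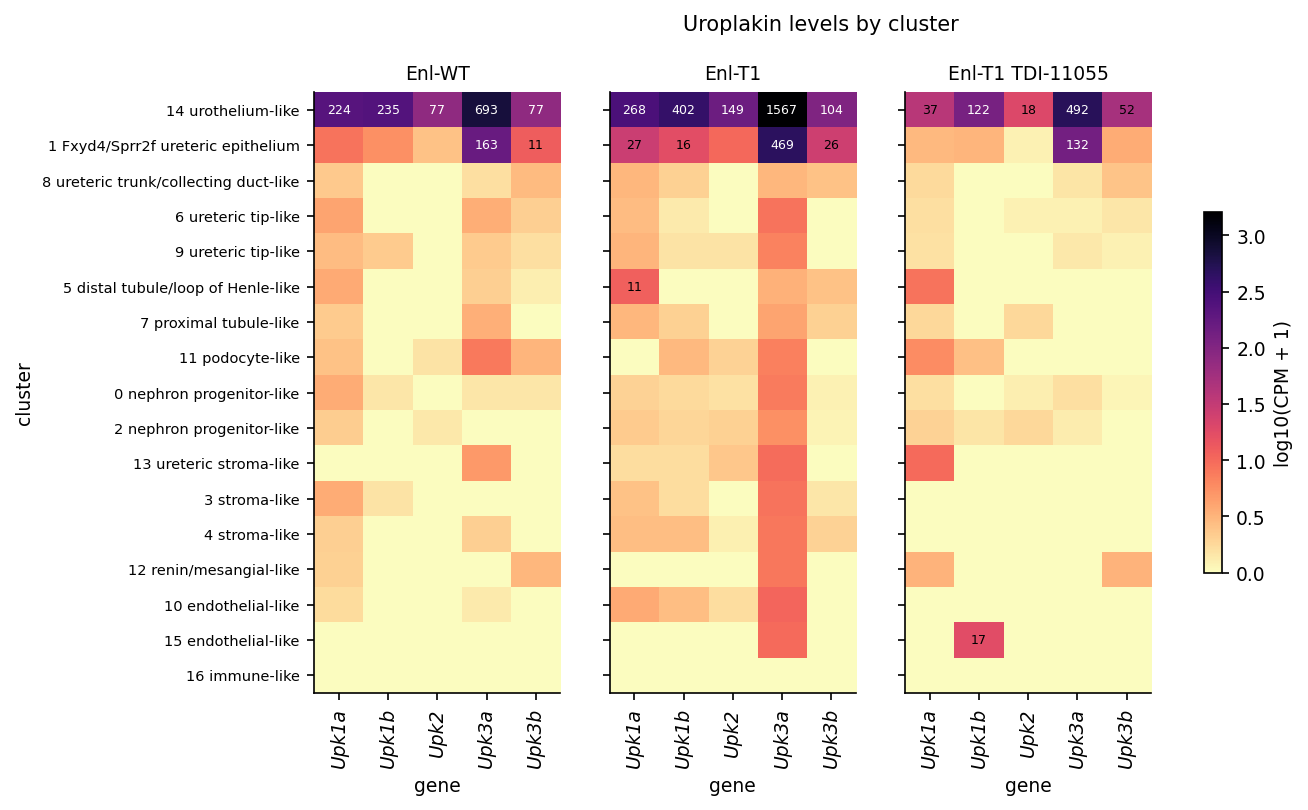
Levels of the 5 uroplakins by cluster (rows) and gene (columns) in each library, as the log10 of CPM + 1 by colour. The urothelium-like cluster is high for all 5 members in every library, and cluster 1 is high mainly for *Upk3a* (163, 469 and 132 CPM).

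**Figure D4:**
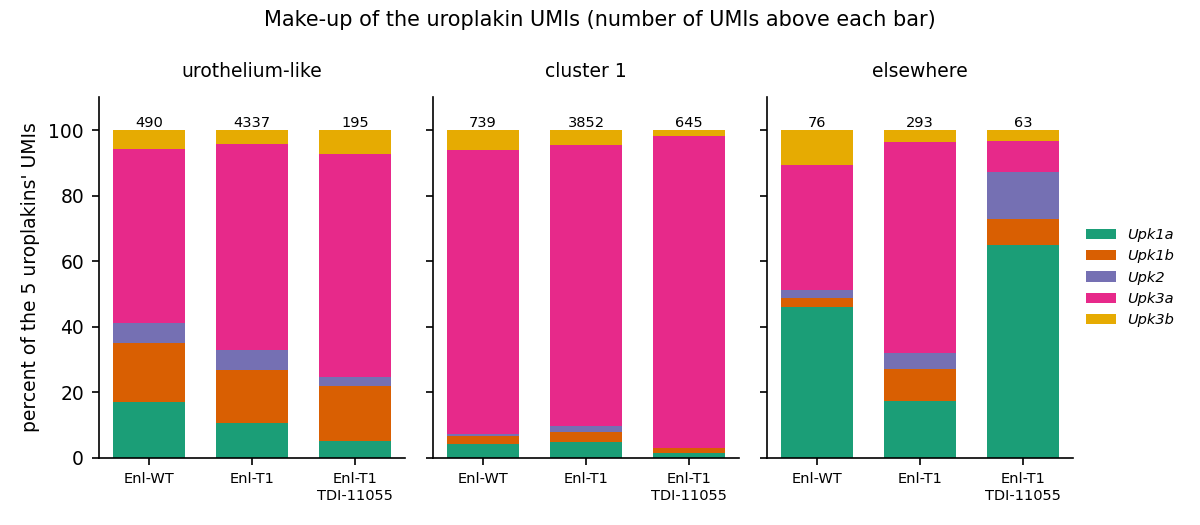
Percent of the uroplakin UMIs (vertical axis) that each member supplied in each library, in urothelium-like cells, in cluster 1 and in all other cells outside the ureteric epithelium, with the number of UMIs above each bar. *Upk3a* takes 85.7% to 95.04% in cluster 1 and 53.1% to 68.2% in urothelium-like cells, and *Upk1a* takes 46.1%, 17.4% and 65.1% outside.

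Cells with at least 2 members detected, called uroplakin cells here, numbered 85 for Enl-WT (1.62%, 1.30 to 2.00), 226 in Enl-T1 (5.45%, 4.78 to 6.19) and 29 in the treated library (1.05%, 0.706 to 1.51). They held 60.5%, 82.9% and 42.8% of each library's uroplakin UMIs. After each cell was thinned to 2000 UMIs the counts were 40 of 5137 cells (0.779%), 93 of 4129 (2.25%) and 3 of 2734 (0.110%), with 96, 15 and 20 shallower cells left out. The order of the libraries was the same with and without thinning, and the treated library lay further below Enl-WT when thinned. Under the stricter limits the order of Enl-WT and the treated library turned, with shares of 0.375%, 4.24% and 1.15% in Enl-WT, Enl-T1 and the treated library. Nearly all uroplakin cells were in the urothelium-like cluster (37, 96 and 11) or in cluster 1 (46, 123 and 16), with 2, 7 and 2 elsewhere. *Upk2* was detected mostly in cells that also held *Upk3a*: 22 of 25 cells in Enl-WT and 89 of 107 in Enl-T1, but 4 of 14 in the treated library. For *Upk1b* the same counts were 40 of 52, 132 of 166 and 19 of 26. *Upk3a* was the member found alone in 147 of 242, 360 of 486 and 60 of 135 cells with exactly 1 member, and *Upk1a* came next with 57, 60 and 45.

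Outside the urothelium-like cluster and the ureteric epithelium (clusters 1, 6, 8 and 9), uroplakins were low. The 3490 Enl-WT, 2974 Enl-T1 and 1733 treated cells held 76, 293 and 63 UMIs of the members, or 3.65, 10.2 and 2.59 CPM. *Upk3a* followed the order of the whole libraries there, with 1.39, 6.53 and 0.247 CPM from 29, 188 and 6 UMIs. *Upk1a* was at a nearly even level of 1.68, 1.77 and 1.68 CPM from 35, 51 and 41 UMIs. Counts of the other members were low. *Upk1b* gave 2, 28 and 5 UMIs (0.096, 0.973 and 0.205 CPM) and *Upk2* 2, 15 and 9 (0.096, 0.521 and 0.370 CPM). *Upk3b* gave 8, 11 and 2 (0.384, 0.382 and 0.082 CPM). The ratio of treated over Enl-WT was 2.14 (0.350 to 22.5) for *Upk1b* and 3.85 (0.797 to 36.6) for *Upk2*. For *Upk3b*, Enl-T1 over Enl-WT was 0.995 (0.365 to 2.85). These intervals include no difference, so these pairs of libraries cannot be ordered for these members. For *Upk1a*, the ratio of Enl-T1 over Enl-WT in these cells was 1.05 (0.673 to 1.67), against 3.16 (2.67 to 3.77) over whole kidneys. The make-up of the UMIs differed from that of the epithelium most in Enl-WT and the treated library. *Upk1a* was at 46.1%, 17.4% and 65.1% of the UMIs outside, against 17.1%, 10.7% and 5.13% in urothelium-like cells. *Upk3a* was at 38.2%, 64.2% and 9.52%, against 53.1%, 62.9% and 68.2%, so that the Enl-T1 values lay closest.

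Part of that *Upk1a* was found in the distal tubule/loop of Henle-like cluster, which is led by *Slc12a1*, the salt transporter of the thick ascending limb. Its 578, 106 and 221 cells held 10, 14 and 24 of the 35, 51 and 41 *Upk1a* UMIs. The levels were 2.75 CPM (1.32 to 5.07), 10.8 CPM (5.93 to 18.2) and 7.67 CPM (4.92 to 11.4). The UMIs were spread over 9, 10 and 18 cells with at most 2, 3 and 3 in a cell. None of these cells held another member. All other members together gave 5, 5 and 0 UMIs in the cluster, and 3 UMIs correspond to 0.826, 2.32 and 0.959 CPM. These cells supplied 6.06%, 1.94% and 34.8% of the library's *Upk1a*. The nearly even *Upk1a* level outside the epithelium thus held an unequal part from this cluster. The make-up of the cluster also differed between libraries: *Slc12a1* was at 486, 65.8 and 83.5 CPM and *Umod*, a later gene of the same segment, at 17.6, 1.55 and 1.60 CPM, both highest in Enl-WT where *Upk1a* was lowest. The part of this difference in the *Upk1a* levels was not tested.

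Endothelial-like cells were used to read the uroplakin background of each library. The 394, 257 and 116 cells held 3, 46 and 1 UMIs of the members, which is 1.04 CPM in Enl-WT (0.214 to 3.04), 14.4 CPM in Enl-T1 (10.53 to 19.2) and 0.559 CPM in the treated library (0.014 to 3.12). As a share of the level over all kept cells this was 2.48%, 7.45% and 2.61%. In Enl-T1, 21 of the 46 UMIs came from 1 cell, which was among the barcodes removed for the highest Scrublet scores (the automatic threshold marked 0 there), and the share was 4.14% without the removed cells. In the stroma lineage the share was 6.99%, 5.53% and 4.02%, and in the nephron lineage 10.53%, 4.63% and 14.49%. In absolute CPM the endothelial-like background was highest in Enl-T1, and the intervals of its shares overlapped between libraries (0.511% to 7.24%, 5.45% to 9.94% and 0.066% to 14.55%). Cells outside the epithelium with 5 or more uroplakin UMIs were rare: 2 in Enl-WT (a proximal tubule-like cell with 6 and a podocyte-like cell with 11), 3 in Enl-T1 with 7, 12 and 21, of which the last 2 were among the highest Scrublet scores, and none in the treated library. Ureteric tip-like cells, the branching ends of the ureteric tree, held 6.04, 9.44 and 1.30 CPM, close to cells of other lineages.

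**Figure D5:**
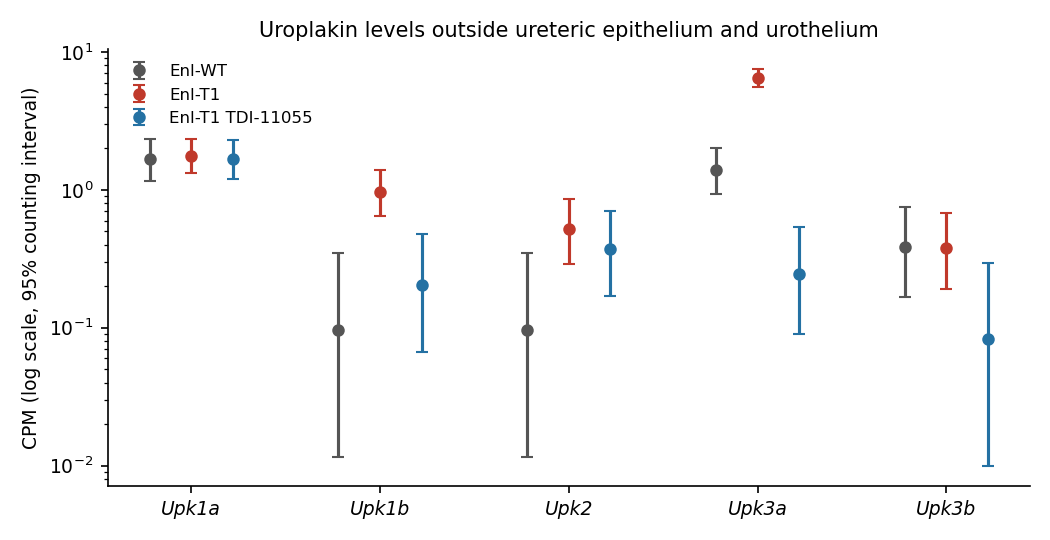
Levels of the 5 uroplakins in cells outside the ureteric epithelium and the urothelium-like cluster (CPM, log axis), with 1 point per gene and library and bars for the exact 95% Poisson interval. *Upk3a* spans 0.247 to 6.53 CPM, whereas *Upk1a* lies between 1.68 and 1.77 CPM in all 3 libraries.

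Other genes of the urothelial programme were read in urothelium-like cells against the other ureteric epithelium, where 120 of 10500 genes (1.14%) were at least 2-fold higher in every library with 10 CPM added to both sides. Cells were clustered on such genes, so these counts describe the cluster and do not test it. Of 7 genes of plaque trafficking and terminal differentiation, 4 were higher in every library. *Rab27b*, a GTPase of the vesicles that carry plaques, was at 240, 272 and 311 CPM in Enl-WT, Enl-T1 and the treated library. *Snx31*, a sorting nexin of the urothelium, was at 115, 139 and 77.6 CPM, and *Mal*, a membrane sorting protein, at 603, 936 and 680 CPM. *Upk3bl* was the fourth, at 21.3, 24.7 and 37.0 CPM from 8, 43 and 10 UMIs. In cluster 1, a part of the other ureteric epithelium, *Mal* was at 402, 557 and 299 CPM. *Rab27b*, *Snx31* and *Upk3bl* were each at 28.2 CPM or less in cluster 1. *Krt20*, a keratin of the umbrella cells, was higher in 2 libraries, and *Sytl2* in none.

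*Psca*, a surface antigen, stood out among them because it was at 8.0 and 7.40 CPM in Enl-WT and the treated library (3 and 2 UMIs) and at 169 CPM in Enl-T1 (294 UMIs). It was thus highest in the library where the uroplakins were, and the other 2 libraries cannot be ordered from so few counts. For the list, the median log2 difference from the other ureteric epithelium was 1.46, 1.86 and 1.96, against -0.02, -0.04 and -0.02 for all genes.

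Of 8 urothelial transcription factors, *Foxa1*, *Grhl3*, *Pparg*, *Klf5* and *Trp63* were at least 2-fold higher in every library. *Foxa1* was at 155, 142 and 122 CPM and *Pparg*, a nuclear receptor of urothelial differentiation, at 69.3, 80.4 and 48.1 CPM. *Trp63*, a regulator of basal cells, was at 50.7, 37.3 and 18.5 CPM. *Elf3*, *Ehf* and *Gata3* were past 2-fold in no library. The median log2 difference of the list was 1.33, 1.21 and 1.58.

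Among 8 keratins, *Krt7* (659, 710 and 836 CPM) and *Krt19* (1003, 1687 and 1283 CPM) were higher in every library. Cluster 1 held *Krt7* at 511, 491 and 431 CPM and *Krt19* at 509, 1067 and 575 CPM. *Krt13* and *Krt14* had no UMI in these cells and *Krt5*, the keratin of mature basal cells, had 1, 1 and 0. Taken at 3 UMIs, a 1-sided limit, a count of 0 allows up to 8.0, 1.72 and 11.1 CPM here. Of 10 genes of ureter signalling and ureteric mesenchyme, none was 2-fold higher or lower in every library. *Shh*, the signal from the ureter lining to its mesenchyme, was at 24.0, 25.3 and 29.6 CPM. Of 5 mesothelium markers, *Msln* was higher in every library, at 58.7, 80.4 and 25.9 CPM, while *Lrrn4*, *Muc16*, *Bnc1* and *Gpm6a* had no UMI.

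The genes most like the uroplakins across cells were taken as those with the highest minimum, over the 3 libraries, of the log2 ratio between uroplakin cells and all other kept cells. Genes of the 4 lists of plaque, transcription factor, keratin and ureter genes were skipped, among them *Krt19* (3.81), and the first 10 others are given. *Sprr1a*, a precursor of the cornified envelope, came first at 4.50, with 1149, 2192 and 610 CPM in uroplakin cells and 32.2, 87.0 and 11.02 CPM in other cells. It was followed by *Fxyd3*, a regulator of the sodium pump (3.96), *Ctse*, an aspartic protease (3.71), *Sfn*, a 14-3-3 protein of epithelia (3.42), and *Foxq1*, a forkhead factor (3.396). *S100a6*, a calcium-binding protein (3.35), *Tspan8*, a tetraspanin (3.05), *Apela*, a ligand of the apelin receptor (3.05), *Perp*, a protein of desmosomes (2.69), and *Hspb1*, a small heat shock protein (2.66), completed the 10. In uroplakin cells, *Sprr1a*, *Ctse*, *Sfn*, *Foxq1*, *Apela* and *Perp* were highest in Enl-T1 and lowest in the treated library, the order of the uroplakins. *Fxyd3* (420, 1074 and 794 CPM), *S100a6* (1318, 5832 and 1594 CPM) and *Tspan8* (542, 892 and 676 CPM) were lowest in Enl-WT, and *Hspb1* (522, 520.2 and 799 CPM) was highest in the treated library.

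Across 13 clusters with at least 20 cells in each of the 3 libraries (39 points), the summed members correlated most with *Sprr1a* (Pearson's r = 0.984 on log2 of CPM + 10), *Ctse* (0.974), *Fxyd3* (0.967), *Cers3*, a ceramide synthase (0.954), and *Pla2g1b*, a secreted phospholipase (0.952). The points of a library share its depth and its free RNA, cluster 1 holds the high values, and the urothelium-like cluster is not among them because it has 15 cells in the treated library.

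The ureter also has a coat of mesenchyme and smooth muscle, and its cells did not follow the uroplakins throughout. A ureteric stroma-like cluster held 59 cells of Enl-WT (1.13%), 190 of Enl-T1 (4.58%) and 10 of the treated library (0.363%), the order of the uroplakin levels. *Tbx18*, a transcription factor of ureteric mesenchyme, was at 2.87, 6.67 and 0.554 CPM over all kept cells, again in that order. *Myh11*, the myosin of smooth muscle, was at 11.2, 2.10 and 0.254 CPM and so was highest in Enl-WT. Within the cluster *Myh11* was at 754 and 19.0 CPM in Enl-WT and Enl-T1. The 10 treated cells had no UMI, which at 3 UMIs allows up to 26.6 CPM. *Acta2*, smooth muscle actin, was at 1241 and 201 CPM in Enl-WT and Enl-T1, and had no UMI in the treated cells. The part of these cell shares in the uroplakin levels was not tested. Within the ureteric epithelium and the urothelium-like cluster alone, the log2 ratio of the summed uroplakins was 2.24 between Enl-T1 and Enl-WT. It was -3.55 between the treated library and Enl-T1. This set of cells was chosen after seeing the data, and its make-up differed between the libraries too. Urothelium-like cells were 3.098%, 9.402% and 1.47% of it in Enl-WT, Enl-T1 and the treated library. Cluster 1 was 29.5%, 46.1% and 27.6% of it. These ratios therefore still include differences in cell shares.

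The limits on barcodes touched the uroplakins unequally. Of all uroplakin UMIs deposited (1572, 15530 and 1834), 85.4%, 55.0% and 50.5% were in kept cells. The upper limit of 6000 genes alone took 2.86%, 32.4% and 45.7% of them, and the same barcodes held 4.65%, 21.8% and 35.0% of all UMIs. Among these 55, 309 and 577 barcodes, 1, 85 and 32 held at least 2 members. Urothelium-like cells had a median mitochondrial share of 7.11%, 5.72% and 4.43%, against 5.00%, 4.07% and 3.11% in ureteric tip-like cells. All kept cells were at 5.81%, 5.42% and 3.399%. Cluster 1 was at 7.16%, 6.19% and 4.74%, so a high share was not particular to urothelium-like cells.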

How the data were processed

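Raw UMI counts per gene and barcode had been made and deposited by the authors with Cell Ranger 6.1.2 on mm10, as barcodes called as cells, with no later filter. Barcodes with 1000 to 6000 genes and at most 10% mitochondrial UMIs were kept. Seurat 5.3.0 (with R 4.3.3 and SeuratObject 5.2.0) joined the libraries by anchors on 2000 variable genes, without the 5 members and 130 technical or sex-linked genes, and found clusters on 30 components (resolution 0.5). Names come from marker lists, since the files held no cell types, so differences from the study may reflect the naming alone. Counts were summed per library and class and given as CPM (Python 3.11.15, scipy 1.17.1). Ratios have exact intervals from the split of the counts. Their recovery was tested on simulated data. Doublets were left in, and as an alternative Scrublet (scanpy 1.11.5) removed 110, 159 and 67 kept cells. Its automatic threshold marked none in the last 2 libraries, so the highest scores were taken there. Alternatives also changed the limits on barcodes, the total, the size factors, the definition of uroplakin cells, the resolution and the background cells. The members and lists were chosen with earlier results of these data known. Named genes are the members, the genes of 4 lists and the genes ranked by likeness to the members, outside those lists, over cells (10) and over clusters (5). *Upk3bl* and the mesothelium markers were taken from marker lists, and leading genes of clusters, *Slc12a1* and *Umod* were named after their values were seen.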

Additional observations from a re-analysis of the deposited data

Results flagged for a closer look

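Barcodes above the upper limit of 6000 genes were outside the kept cells on which the levels of the report rest, and in the Enl-T1 library they held the 5 uroplakins at a summed level of 363.9 CPM (5036 UMIs in 309 barcodes, 354 to 374), which was above the control library in the same class of barcodes. Enl-WT was at 26.0 CPM (45 UMIs in 55 barcodes, 19.0 to 34.8) and Enl-T1 TDI-11055 at 31.2 CPM (838 UMIs in 577 barcodes, 29.2 to 33.4). A UMI of a member was found in 48.2% of these Enl-T1 barcodes, with up to 566 in 1 of them, against 14.55% in Enl-WT and 21.7% in Enl-T1 TDI-11055. Whether they were single cells was not tested.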

How the results depend on the processing

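There was 1 library per group, so no library could be left out. No paired analysis was possible because each group was 1 library. Of the 27 values of the summed ratio under other settings 26 had the main direction, as did 86 of 88 for single members and 16 of 16 in urothelium-like cells; the 3 ratios that turned were the treated library over Enl-WT under stricter limits (at least 2000 genes and at most 5% mitochondrial UMIs). The cause of these shifts was not tested. Log2 ratios follow. For all deposited barcodes, Enl-T1 over Enl-WT was 2.54 for the sum, 2.26 for *Upk1a* and 2.57 for *Upk3a*, treated over Enl-T1 -3.36 for the sum, -5.21 for *Upk2* and -3.22 for *Upk3a*, and treated over Enl-WT -0.82 for the sum and -1.11 for *Upk3b*; uroplakin cells held 86.1% (Enl-T1) and 51.2% (treated) of the UMIs. With no upper gene limit, Enl-T1 over Enl-WT was 2.51, 2.16 (*Upk1a*) and 2.57 (*Upk3a*), treated over Enl-WT -0.71, -1.22 (*Upk1a*), -0.52 (*Upk3a*) and -1.02 (*Upk3b*); uroplakin cells made up 6.98% and 1.83% and held 86.8% and 52.6%, and 1230 genes were lower in treated than Enl-WT in place of 1847. Under stricter limits Enl-T1 over Enl-WT was 3.65, 2.75 (*Upk1a*), 5.22 (*Upk1b*), 3.67 (*Upk3a*) and 2.62 (*Upk3b*), treated over Enl-T1 -2.82 (*Upk1a*) and -2.82 (*Upk3b*), and treated over Enl-WT 0.50 for the sum, 1.28 (*Upk1b*), 0.59 (*Upk3a*), -0.069 (*Upk1a*) and -0.20 (*Upk3b*); uroplakin cells made up 0.375% (Enl-WT), 4.24% (Enl-T1) and 1.15% (treated), so that the treated share was above Enl-WT in place of below it, and held 54.4%, 81.4% and 59.1%, the endothelial-like background of Enl-WT was 0, and 68 genes were higher in treated than Enl-T1 in place of 120. *Upk2* and urothelium-like ratios over Enl-WT gave no value there. Without mitochondrial, ribosomal and haemoglobin UMIs in the total, Enl-T1 over Enl-WT was 2.40, 2.46 (*Upk3a*) and 1.08 in urothelium-like cells, treated over Enl-WT -0.80 and -0.57 (*Upk3a*), and 414 genes were higher and 474 lower in Enl-T1. With size factors Enl-T1 over Enl-WT was 2.53, 1.99 (*Upk1a*), 2.81 (*Upk1b*), 2.60 (*Upk3a*) and 1.21 in urothelium-like cells (495 genes higher, 277 lower), and treated over Enl-WT -0.54, -1.27 (*Upk1a*) and -0.32 (*Upk3a*) (577 higher, 541 lower). Chosen after seeing the data, the sum without *Upk3a* gave 2.04, -3.72 and -1.68 in the order of comparisons, and ureteric epithelium and urothelium-like cells alone gave -3.55 and -1.31 for the treated library over Enl-T1 and Enl-WT. At a resolution of 1 the urothelium-like class took in the *Upk3a*-high part of cluster 1, with 298, 401 and 117 cells in place of 54, 110 and 15. Its ratio was 1.25 (Enl-T1 over Enl-WT) and -0.55 (treated over Enl-WT), so most of its cells differ from the main class. Uroplakin cells made up 0.779%, 2.25% and 0.110% (Enl-WT, Enl-T1, treated) and held 41.3%, 55.3% and 7.77% when thinned; with 3 members, 0.669%, 3.14% and 0.363%, holding 37.8%, 70.9% and 16.5%; with 3 UMIs, 2.58%, 7.79% and 2.14%, holding 83.0%, 95.03% and 86.8%; without *Upk3b*, 1.26% and 4.42% in Enl-WT and Enl-T1, holding 54.7%, 76.7% and 39.1%. Nephron-like cells as background gave 10.53% and 4.63% in Enl-WT and Enl-T1, and without doublets the endothelial-like background of Enl-T1 was 4.14%. Background levels were not run for all deposited barcodes, since removed barcodes have no class. In treated urothelium-like cells the values of *Upk2* and *Upk3b* rest on 5 and 14 UMIs from 15 cells.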
